A study of Homo sapiens with 27 samples.

Results

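The genes described here were 40 genes of the lysosome and of autophagy, out of 36536 gene symbols or identifiers in the count table, measured by RNA-seq in MCF10A cells. MCF10A is an established, non-tumorigenic human mammary epithelial line. The members were chosen by gene symbol, as a list proposed with earlier results of these data in view, so the list as a whole is not independent evidence of a direction. GPNMB had already stood out for its levels, and its own values are given as a description with no test. It is still among the 40 members in the counts and medians below, which were not recomputed without it. All 40 members passed the filter on low counts, as did 15575 genes in all, and no member had fewer than 40 counts in any of the 27 libraries. The members fell into 7 roles: 6 membrane proteins, 8 proteases, 10 glycosidases or sulfatases, 6 proteins that handle lipids, 2 subunits of the proton pump, 3 transcription factors and 5 autophagy proteins.

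The study's question was whether ligands given together act additively. Cells grown with epidermal growth factor (EGF) at 20 ng/ml were kept for 18 h in medium free of growth factors, which all 9 groups share. They then received fresh medium of that kind with EGF, oncostatin M (OSM), which is an interleukin-6 type cytokine, or transforming growth factor beta (TGFB). The dose of each was 10 ng/ml, given singly, in each pair or all together, and RNA was taken at 24 h. The PBS group received no ligand for the same 24 h, and the T0 group was taken at 0 h. Each group had 3 libraries of polyadenylated RNA. Nothing in the labels says that replicates came from separate cultures, so p-values measure only the spread between these libraries.

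Lysosomes are acidic organelles in which hydrolases break down proteins, glycans, glycolipids and cholesterol esters. A proton pump, the V-ATPase, keeps them acidic, and autophagy delivers the cell's own material to them inside double-membraned vesicles. Many lysosomal and autophagy genes carry a promoter element called CLEAR, bound by the transcription factors TFEB, TFE3 and MITF. These factors enter the nucleus when nutrients or growth factors are scarce and the kinase mTORC1 at the lysosome is less active. Transcript levels do not report where those proteins are or how active they are.

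The CLEAR element is built on the letters TCACGTGA, which contain the E-box CACGTG. Both read the same on either strand, so each site counts once, and every match of the longer motif is also a match of the shorter. RefSeq promoters on GRCh38.p14, from 250 bases before to 50 bases after the start, were found for 32 of the 40 members. The longer motif was present in 5 of those 32 (15.6%), in 11.8% of the promoters of 85 other pathway genes and in 1.04% of all 27305 promoters of this length. CACGTG was present in 8 of the 32 (25.0%), in 20.0% of the other pathway promoters and in 7.43% of all. The 5 members were LAMP1, MCOLN1, CTSA, GAA and ATP6V0D1. A match is a description of letters and shows no binding. The first 4 by role are printed to show where the motif lies, with its first match beginning at position -29 from the start for LAMP1, -42 for MCOLN1, -26 for CTSA and -77 for GAA. Capitals mark TCACGTGA. Each promoter is on the plus strand, at chr13:113296989-113297288 for LAMP1, chr19:7522374-7522673 for MCOLN1, chr20:45891085-45891384 for CTSA and chr17:80101331-80101630 for GAA.
LAMP1: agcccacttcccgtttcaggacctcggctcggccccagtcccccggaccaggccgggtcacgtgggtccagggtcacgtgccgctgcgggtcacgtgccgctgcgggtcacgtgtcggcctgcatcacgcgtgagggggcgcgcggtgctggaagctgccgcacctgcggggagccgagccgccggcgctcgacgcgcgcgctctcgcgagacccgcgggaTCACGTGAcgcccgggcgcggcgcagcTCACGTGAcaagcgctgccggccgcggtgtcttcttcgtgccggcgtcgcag
MCOLN1: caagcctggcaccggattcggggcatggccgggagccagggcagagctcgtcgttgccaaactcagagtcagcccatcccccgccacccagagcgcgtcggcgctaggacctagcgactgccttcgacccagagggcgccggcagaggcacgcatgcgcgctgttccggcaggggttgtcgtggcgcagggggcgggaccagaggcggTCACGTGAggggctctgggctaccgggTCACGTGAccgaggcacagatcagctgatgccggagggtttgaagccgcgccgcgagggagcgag
CTSA: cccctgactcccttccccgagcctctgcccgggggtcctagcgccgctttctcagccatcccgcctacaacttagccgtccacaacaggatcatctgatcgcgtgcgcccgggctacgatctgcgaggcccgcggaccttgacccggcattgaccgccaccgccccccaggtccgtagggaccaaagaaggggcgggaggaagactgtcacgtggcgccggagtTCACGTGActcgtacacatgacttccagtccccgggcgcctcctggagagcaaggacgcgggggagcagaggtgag
GAA: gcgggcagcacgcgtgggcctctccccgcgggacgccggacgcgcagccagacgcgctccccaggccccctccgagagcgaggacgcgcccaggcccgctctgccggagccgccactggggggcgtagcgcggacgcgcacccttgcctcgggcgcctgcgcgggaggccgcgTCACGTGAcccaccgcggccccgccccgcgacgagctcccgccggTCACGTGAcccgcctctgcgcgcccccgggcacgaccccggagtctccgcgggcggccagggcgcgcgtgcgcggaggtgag

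All 5 of those genes were lower with EGF than with PBS at an adjusted p under 0.05. So were 18 of the 27 members whose promoter lacked the longer motif, with 6 higher, and 38.6% of all genes tested. The amounts for the 5 genes were very different. The log2 fold change was -0.29 ± 0.04 for LAMP1, a main protein of the lysosomal membrane, and -0.41 ± 0.07 for MCOLN1, a calcium channel of that membrane. It was -0.69 ± 0.06 for ATP6V0D1, -1.03 ± 0.07 for CTSA and -2.04 ± 0.10 for GAA. Their median was -0.69, beside -0.62 for the 27 members whose promoter lacked the longer motif. Members with the longer motif were thus found at both small and large responses.

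Levels are counts per 1 M counts (CPM), a share of each library, so fewer cells of a kind and less RNA of a gene per cell cannot be told apart. Gene spans given below are those of GENCODE on GRCh38, exons and introns included. Library totals ran from 30.1 to 52.9 M (mega) counts, the median being 39.5 M. Every basal epithelial marker looked for was present, with KRT5 at 3313 to 9188 CPM and TP63 at 84.3 to 199 CPM over the libraries. EPCAM was the lowest of these markers, at 2.72 to 18.6 CPM. Mitochondrial transcripts took 2.98% of counts with PBS, 1.76% with EGF, 1.83% with OSM and 1.30% with all 3 ligands, so they moved with the groups, and their part in the results was not tested. Some libraries stood to one side for the members. T0 replicate 3 and OSM replicate 3 were each the lowest of their group for 29 of the 40 members, and EGF+TGFB replicate 3 for 28.

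The members together took 0.906% ± 0.0158 of all counts with PBS (SD, n = 3), 0.486% ± 0.0113 with EGF, 0.866% ± 0.0461 with OSM and 0.949% ± 0.0134 with TGFB. EGF left most of them lower. Of 40 members, 31 were called lower and 6 higher with EGF against PBS at an adjusted p under 0.05, where 38.6% of all genes tested were lower and 34.9% higher. Their median log2 fold change was -0.64, beside -0.07 for all genes. Past a limit of 2-fold, 12 members remained called, as did 27.5% of all genes. With OSM, 23 members were lower and 9 higher, beside 29.8% and 33.5% of all genes, and the median was -0.22 (-0.12 without OSM replicate 3). TGFB alone left 12 higher and 3 lower, beside 19.9% and 15.8% of all genes, with a median of 0.03. That median ran from 0.00 to 0.05 over the alternatives (0.01 without PBS replicate 3 and 0.05 without PBS replicate 2). No member passed 2-fold with TGFB, beside 5.8% of all genes.

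**Figure D1:**
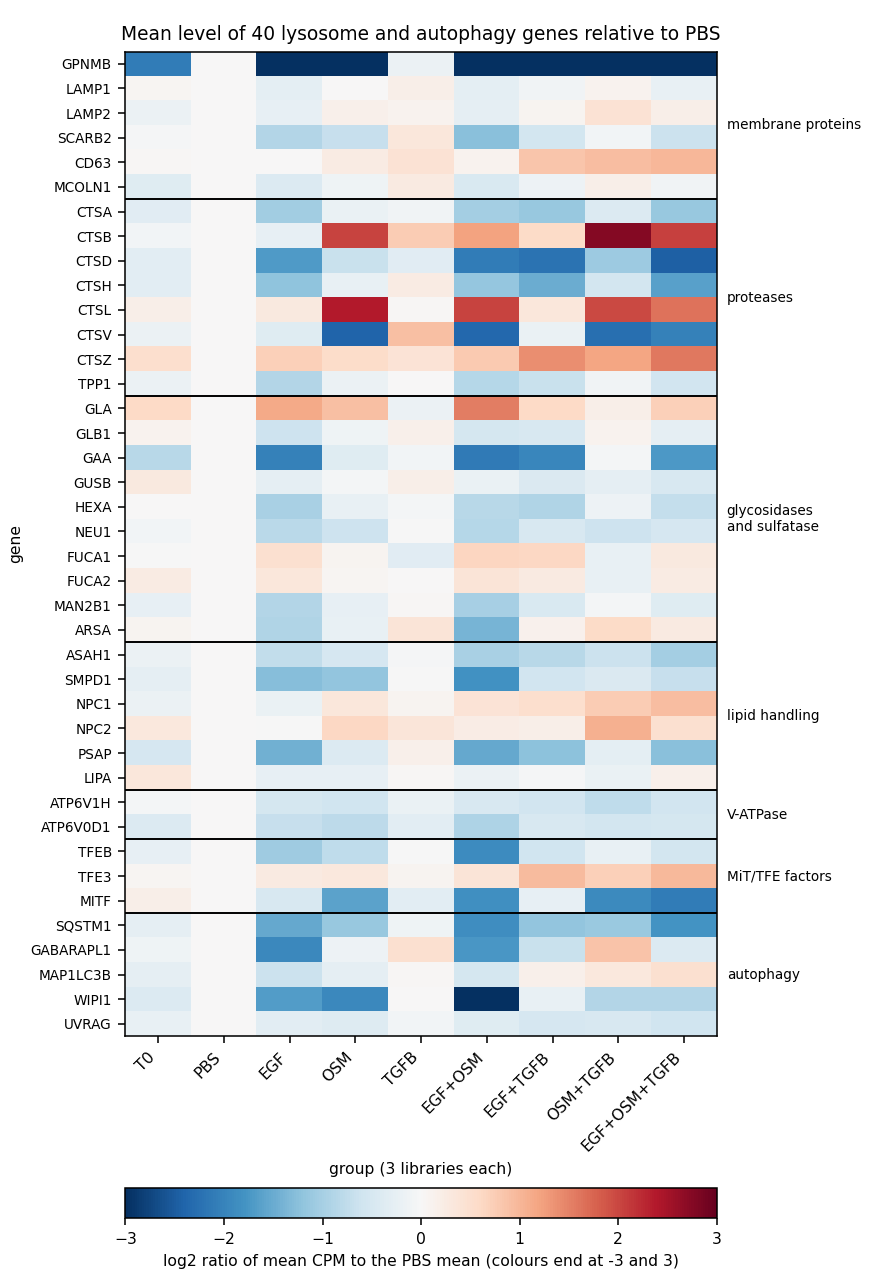
Mean level of each of the 40 members (rows, grouped by role) in each of 9 groups (columns, 3 libraries each), as the log2 ratio of mean CPM to the PBS mean. Blue dominates the columns with EGF, while CTSB and CTSL are red wherever OSM was given and CTSV and MITF are blue there; GPNMB goes beyond the colour scale.

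Among the membrane proteins, GPNMB had the widest range over the groups, 49.3-fold between the highest and lowest mean. GPNMB (chr7:23235967-23275108, plus strand) is a transmembrane glycoprotein found in endolysosomes and melanosomes. It was at 95, 94.7 and 79.4 CPM with PBS, 26.7, 21.8 and 14.2 at T0 and 85.2, 75.2 and 78.3 with TGFB. All 18 libraries that received EGF or OSM, with or without TGFB, lay at or below 5.70 CPM, and the other 9 at or above 14.2 CPM. EGF gave 3.81, 4.21 and 3.05 CPM, OSM 4.41, 5.7 and 2.92 and both 2.11, 1.96 and 1.39. With TGFB added, the levels were 4.81, 3.54 and 2.64 for EGF, 5.11, 4.62 and 3.34 for OSM and 2.42, 1.85 and 1.25 for all 3 ligands. GPNMB libraries with and without TGFB overlapped in each of these settings.

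SCARB2, the receptor that carries glucocerebrosidase to lysosomes, was at 279.7, 279.7 and 275 CPM with PBS, 146, 157 and 154 with EGF, 174, 181 and 162 with OSM and 339, 359.6 and 349.9 with TGFB. With both EGF and OSM it was at 114, 122 and 114, the lowest of the 9 groups. SCARB2 fell with either ligand (log2 -0.87 ± 0.06 and -0.69 ± 0.06) and rose with TGFB (0.33 ± 0.06), with no overlap with PBS in any of these. TGFB added to OSM brought it to 268, 273 and 242 CPM, a level not called different from PBS, except as lower with upper-quartile scaling (adjusted p = 0.00759). Those libraries nevertheless all lay below every PBS library.

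CD63, a tetraspanin of late endosomes and exosomes, was at 236, 252 and 233 CPM with PBS and 234, 255 and 244 with EGF, and those libraries overlapped. It rose to 321, 322 and 338 with TGFB, 429.8, 458 and 392 with EGF+TGFB and 481, 486 and 464 with all 3 ligands. The change with TGFB was 0.44 ± 0.05 on the log2 scale, and the change with all 3 ligands 0.99 ± 0.05 (adjusted p = 4.52e-15). LAMP1 and LAMP2, the most abundant proteins of the lysosomal membrane, spanned 1.39-fold and 1.63-fold over the 9 groups. MCOLN1 fell with EGF, as given above, and rose with TGFB by 0.27 ± 0.07.

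The cathepsins split by ligand. CTSD (chr11:1752752-1764573, minus strand), an aspartic protease, was at 1128, 1299 and 1320.0 CPM with PBS, 359.9, 409 and 388 with EGF, 768, 908 and 675 with OSM and 913, 997 and 1032 with TGFB. It fell with each of the 3 ligands, by 1.69 ± 0.10, 0.67 ± 0.09 and 0.35 ± 0.09 on the log2 scale, and the libraries of each lay below every PBS library. The combinations went lower still, to 293, 311 and 266 CPM with EGF+OSM, 241, 285 and 286 with EGF+TGFB and 214, 246 and 233 with all 3. OSM+TGFB gave 564, 636 and 549.8 CPM. No departure from the sum of the single log2 responses was called for CTSD in any pair, with 95% intervals of -0.01 to 0.53 (EGF+OSM), -0.43 to 0.11 (EGF+TGFB) and -0.35 to 0.19 (OSM+TGFB). Without OSM replicate 2, CTSD was called above the sum with EGF+OSM (adjusted p = 0.016).

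CTSB, a cysteine protease, went the other way with OSM. It was at 672, 704 and 677 CPM with PBS, 579, 595 and 545 with EGF, 2821, 2720.0 and 2779 with OSM and 1183, 1174 and 1133 with TGFB. The combinations gave 1670.0, 1604 and 1490.0 with EGF+OSM, 1076, 1063 and 895 with EGF+TGFB, 4533, 4496 and 4721 with OSM+TGFB and 2891, 3014 and 2621 with all 3. OSM+TGFB was the highest group, and no library of it overlapped any other group. CTSB rose 4.05-fold with OSM (log2 2.02 ± 0.07, adjusted p = 9.49e-19) and fell with EGF (log2 -0.26 ± 0.06). Its level with EGF+OSM was below the sum of the single responses by 0.55 ± 0.09 on the log2 scale (adjusted p = 2.41e-05). CTSB has 2 rows in the table, 1 of them an alternate copy of the locus, and they were summed.

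CTSV (chr9:97029677-97156556, minus strand) is a cysteine protease close in sequence to CTSL, and these 2 moved in opposite directions with OSM. CTSV was at 109, 117 and 85.3 CPM with PBS, 82.1, 90.1 and 69.2 with EGF, 21.5, 18.8 and 18.3 with OSM and 215, 203 and 161 with TGFB. The other groups with OSM gave 21.2, 21.6 and 18.6 with EGF+OSM, 22.8, 21.2 and 21 with OSM+TGFB and 27.9, 26 and 22.2 with all 3. All 12 libraries with OSM lay at or below 27.9 CPM and every other library at or above 62.1 CPM. CTSL, named here after its values were seen, was at 71.6, 74.2 and 69.1 CPM with PBS, 88.8, 86 and 90.1 with EGF and 356, 386 and 378 with OSM. It stayed high with EGF+OSM, at 278, 286 and 313, and with OSM+TGFB, at 276, 277 and 298. The log2 change with OSM was -2.41 ± 0.21 for CTSV (adjusted p = 2.1e-09) and 2.38 ± 0.05 for CTSL (adjusted p = 4.22e-22). Because the 2 genes are similar in sequence, estimated counts could in part be exchanged between them, and their sum is not examined further.

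TGFB alone raised CTSV (log2 0.90 ± 0.19, adjusted p = 0.000727) with no overlap with PBS, but in the presence of OSM no change with TGFB was called (0.15 ± 0.21, 95% interval -0.29 to 0.60). The difference between these 2 responses, -0.74 ± 0.28, did not pass the threshold (adjusted p = 0.0642). It was called with DESeq2 (0.031), without TGFB replicate 3 (0.0424) and with replicate number fitted as a block. CTSV was lowest in replicate 3 in each of the 9 groups. Of the other proteases, CTSA, CTSH and TPP1, which are a serine carboxypeptidase, a cysteine protease and a tripeptidyl peptidase, fell with EGF by 1.03, 1.20 and 0.88. CTSZ, a carboxypeptidase, rose with every ligand, by 0.71 with EGF, 0.55 with OSM and 0.42 with TGFB.

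**Figure D2:**
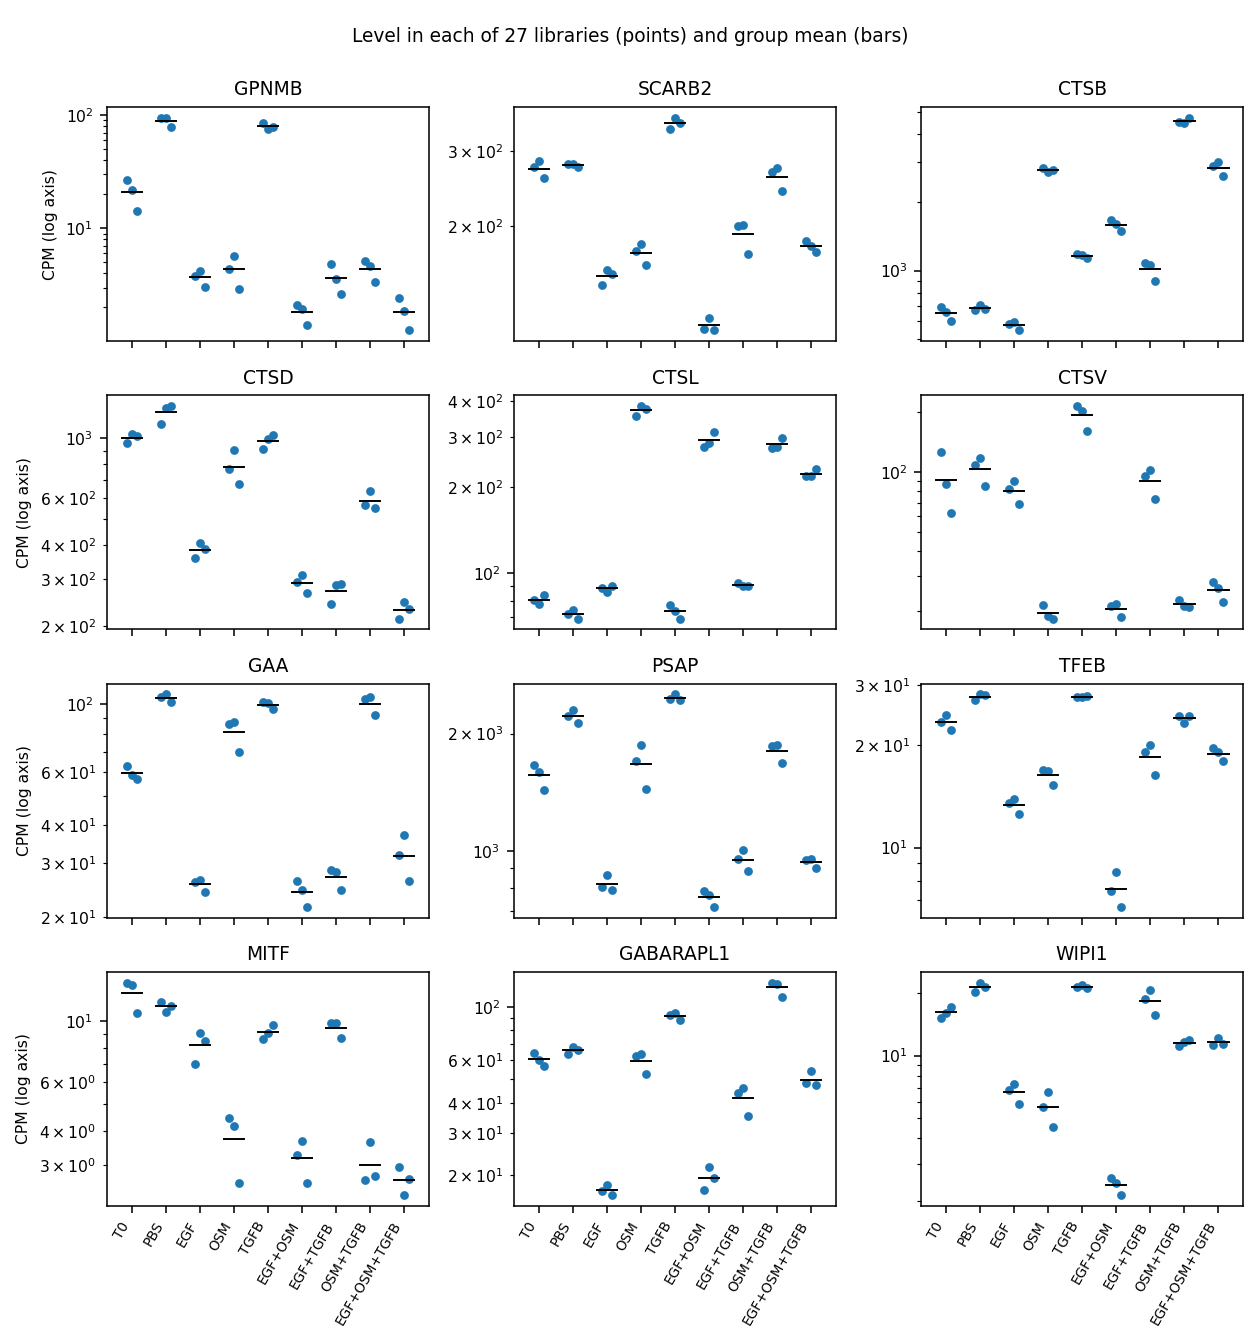
CPM of 12 members in each of the 27 libraries (points, log axis) by group, with bars at the group means of 3 libraries. CTSB and CTSL are high and CTSV and MITF low in the 4 groups with OSM, and GAA and PSAP are low in the 4 groups with EGF.

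Of the enzymes that act on sugars, GAA (chr17:80101533-80119881, plus strand), the acid glucosidase that degrades glycogen in lysosomes, had the widest range. GAA was at 106, 108 and 102 CPM with PBS, 62.6, 58.7 and 56.9 at T0, 26.1, 26.5 and 24.2 with EGF, 86.4, 87.7 and 69.6 with OSM and 102, 101 and 96.3 with TGFB. The 3 other groups with EGF were low too, at 26.2, 24.6 and 21.6 with EGF+OSM, 28.5, 28.1 and 24.5 with EGF+TGFB and 31.9, 37.1 and 26.2 with all 3. OSM+TGFB stood at 104, 106 and 92 CPM, overlapping PBS. Every library with EGF lay at or below 37.1 CPM and every library without it at or above 56.9 CPM. GAA fell 4.11-fold with EGF (log2 -2.04 ± 0.10, adjusted p = 8.82e-15) and by 0.37 ± 0.09 with OSM.

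GLA, the alpha-galactosidase, ran counter to most members. GLA was at 15.4, 15.6 and 17.4 CPM with PBS, 33.6, 36.3 and 37.3 with EGF, 27.4, 29.2 and 34.5 with OSM and 14.8, 12.8 and 15.2 with TGFB. It was highest with EGF+OSM at 43.8, 43.9 and 52.9, while EGF+TGFB gave 21.9, 24.1 and 27.4 and all 3 ligands 24.6, 24 and 31.5. GLA rose with EGF (log2 1.15 ± 0.11) and OSM (0.91 ± 0.11), and TGFB lowered it when added to EGF (-0.55 ± 0.11), to OSM (-0.73 ± 0.11) and to both (-0.81 ± 0.11). TGFB alone gave -0.18 ± 0.11, which was not called.

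ARSA, the sulfatase that acts on sulfatide, was at 17.7, 16.4 and 17.8 CPM with PBS, 11.2, 8.8 and 7.83 with EGF, 16.5, 15.5 and 12.5 with OSM and 22.3, 23.3 and 22 with TGFB. EGF+OSM gave the lowest level, 7.69, 6.98 and 5.18, and EGF+OSM+TGFB gave 21.3, 22.2 and 18.9. ARSA fell with EGF (log2 -0.90 ± 0.12). Its 12 libraries with TGFB lay at or above 17.0 CPM, over the 16.5 CPM that was the highest with EGF, OSM or both. HEXA, GLB1, MAN2B1 and NEU1, which remove hexosamine, galactose, mannose and sialic acid, fell with EGF by 0.96, 0.62, 0.88 and 0.81. NEU1 is spread over 8 rows for alternate copies of its locus, which were summed. FUCA1 and FUCA2, the fucosidases, rose by 0.48 and 0.34, while GUSB, the glucuronidase, fell by 0.27.

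Among the genes of lipid handling, PSAP (chr10:71816298-71851251, minus strand), the precursor of the saposins that present glycolipids to hydrolases, followed EGF. PSAP was at 2214, 2294 and 2132 CPM with PBS, 805, 866 and 792 with EGF, 1696, 1872 and 1438 with OSM and 2453, 2523 and 2439 with TGFB. EGF+OSM gave 788, 770.2 and 717, EGF+TGFB 954, 1004 and 888, OSM+TGFB 1860.0, 1868 and 1680.0 and all 3 948, 954 and 900.5. The 12 libraries with EGF all lay at or below 1004 CPM and the others at or above 1429 CPM. PSAP fell 2.7-fold with EGF (log2 -1.43 ± 0.07, adjusted p = 6.52e-15).

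SMPD1, acid sphingomyelinase, fell with either EGF or OSM. SMPD1 was at 38.2, 43 and 39.8 CPM with PBS, 16.1, 17.3 and 16.4 with EGF, 17.7, 19.8 and 15.3 with OSM and 38.4, 40.3 and 42.1 with TGFB. EGF+OSM took it to 13, 10.6 and 10.8. With TGFB present, EGF gave 27.1, 28 and 26.3, OSM 31.1, 30.2 and 27.6 and both 25.9, 25.2 and 24.2. SMPD1 fell with EGF (log2 -1.28 ± 0.08) and with OSM (-1.19 ± 0.08), and the direct difference between them was -0.09 ± 0.08, with a 95% interval of -0.26 to 0.08. TGFB alone gave -0.00 ± 0.08.

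NPC1, which exports cholesterol from lysosomes, was at 98.6, 106 and 109 CPM with PBS, 89.8, 95.3 and 88.4 with EGF, 134, 136 and 127 with OSM and 107, 109.5 and 114 with TGFB. It was highest with all 3 ligands, at 196, 204 and 196, where the rise was 0.93 ± 0.05 (log2, adjusted p = 1.61e-15). EGF alone lowered NPC1 slightly (-0.20 ± 0.05). NPC2, its soluble partner, rose with OSM by 0.63 and was not called with EGF. ASAH1, acid ceramidase, fell with EGF by 0.74 and with OSM by 0.49. LIPA, the acid lipase for cholesterol esters, fell by 0.25 and 0.24.

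Both subunits of the proton pump were lower than with PBS in all 7 treatments. ATP6V0D1, of the membrane sector, was at 154, 180.2 and 180.4 CPM with PBS, 98.3, 111 and 109.7 with EGF, 94.8, 107 and 98.6 with OSM and 129.5, 142 and 144 with TGFB. ATP6V1H, of the cytosolic sector, was at 76.9, 85.1 and 78.4 with PBS, 52.7, 57.3 and 56.8 with EGF, 48.7, 54.5 and 54.4 with OSM and 66.9, 71.2 and 71.5 with TGFB. No library of a single ligand overlapped PBS for either gene. The falls of ATP6V0D1 were 0.69 ± 0.06, 0.78 ± 0.06 and 0.31 ± 0.06 (log2). The fall of ATP6V0D1 in each pair was smaller than the sum of its single falls, by 0.53 ± 0.09 with EGF+OSM, 0.53 ± 0.09 when TGFB was paired with EGF and 0.53 ± 0.09 when it was paired with OSM. All of these values use the same PBS libraries, and each shares a single-ligand group with every other, so they are not separate evidence. The call of ATP6V1H with TGFB alone was lost without PBS replicate 2 (adjusted p = 0.0562).

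The 3 MiT/TFE factors did not move together. TFEB (chr6:41683978-41736259, minus strand) was at 27.1, 28.2 and 28 CPM with PBS, 13.6, 13.9 and 12.5 with EGF, 16.9, 16.8 and 15.2 with OSM and 27.6, 27.7 and 27.8 with TGFB. EGF+OSM took it to 7.45, 8.47 and 6.7, while EGF+TGFB gave 19.1, 20 and 16.4, OSM+TGFB 24.3, 23.1 and 24.4 and all 3 19.5, 19.1 and 17.9. TFEB fell with EGF (log2 -1.06 ± 0.07) and OSM (-0.76 ± 0.07), and its fall with both, 1.88 ± 0.08, differed from their sum by -0.06 ± 0.11, with a 95% interval of -0.28 to 0.17.

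TFE3 rose where TFEB fell. It was at 49.2, 47.4 and 51.9 CPM with PBS, 58.7, 59.8 and 60.8 with EGF, 61.9, 62.4 and 61 with OSM and 52.9, 49.8 and 53.4 with TGFB. EGF+TGFB gave 95, 98.3 and 91.8 and all 3 ligands 96.1, 100.4 and 97. TFE3 rose with EGF (log2 0.27 ± 0.05) and OSM (0.32 ± 0.05), and with EGF+TGFB by 0.94 ± 0.05, although TGFB alone gave 0.07 ± 0.05, which was not called.

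MITF, best known as the regulator of melanocytes, was low throughout. It was at 11.8, 10.8 and 11.3 CPM with PBS, 13.8, 13.5 and 10.7 at T0, 6.97, 9.04 and 8.46 with EGF, 4.44, 4.15 and 2.59 with OSM and 8.61, 9.05 and 9.64 with TGFB. With OSM in combination it was at 3.28, 3.68 and 2.58 for EGF+OSM, 2.64, 3.65 and 2.73 for OSM+TGFB and 2.96, 2.33 and 2.66 for all 3. All 12 libraries with OSM lay at or below 4.44 CPM and all others at or above 6.97 CPM. MITF fell 3.02-fold with OSM (log2 -1.60 ± 0.16, adjusted p = 2.05e-09) and by 0.47 ± 0.15 with EGF.

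All 5 autophagy genes were lower with EGF. GABARAPL1 (chr12:10212458-10223128, plus strand), which is conjugated to the membrane of autophagosomes, was at 63.8, 67.9 and 66.4 CPM with PBS, 17.2, 18.2 and 16.6 with EGF, 62.7, 63.7 and 52.8 with OSM and 92.4, 94.5 and 88.1 with TGFB. The combinations gave 17.4, 21.7 and 19.5 with EGF+OSM, 44, 46.3 and 35.2 with EGF+TGFB, 126, 125 and 110.3 with OSM+TGFB and 48.2, 54.4 and 47.3 with all 3. GABARAPL1 fell 3.81-fold with EGF (adjusted p = 4.43e-15) and rose with TGFB (log2 0.47 ± 0.09). OSM gave -0.14 ± 0.09, which was not called.

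WIPI1 (chr17:68420948-68457513, minus strand), a phosphoinositide-binding protein of forming autophagosomes, had the widest range of the autophagy genes. It was at 20.3, 22.5 and 21.4 CPM with PBS, 6.85, 7.3 and 5.85 with EGF, 5.67, 6.7 and 4.51 with OSM and 21.4, 21.9 and 21.1 with TGFB. EGF+OSM took it to 2.57, 2.44 and 2.12, EGF+TGFB gave 18.7, 20.6 and 15.6, OSM+TGFB 11.2, 11.6 and 11.9 and all 3 11.3, 12.1 and 11.4. WIPI1 fell with EGF (log2 -1.68 ± 0.11) and OSM (-1.92 ± 0.11), and 8.97-fold with both (adjusted p = 1.36e-17).

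SQSTM1 (chr5:179806398-179838078, plus strand), the cargo receptor p62, was at 769, 849.6 and 821 CPM with PBS, 265, 288 and 288 with EGF, 377, 434 and 305 with OSM and 709.5, 775 and 758 with TGFB. EGF+OSM gave 231, 212 and 224. SQSTM1 fell with EGF (log2 -1.54 ± 0.08) and OSM (-1.13 ± 0.08), with every library below PBS. SQSTM1 is spread over 2 rows, which were summed. MAP1LC3B, the standard marker of autophagosomes, fell by 0.65 with EGF and 0.26 with OSM. UVRAG, of the complex that acts in autophagosome maturation, fell by 0.32 and 0.39.

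Set directly against each other, EGF left 26 members lower and 5 higher than OSM, where 28% of all genes were lower and 28.8% higher. The median log2 difference was -0.29. GABARAPL1 was 3.45-fold lower with EGF (log2 -1.79 ± 0.09), GAA 3.17-fold, PSAP 2.03-fold and HEXA 1.69-fold, and CTSB and CTSL were 4.84-fold and 4.22-fold lower. CTSV and MITF were higher with EGF, by 2.05 ± 0.20 and 1.13 ± 0.16 on the log2 scale. SMPD1, WIPI1, LIPA, UVRAG and both proton pump subunits fell with each ligand, and for these no difference between EGF and OSM was called. The 95% interval of that difference was 0.01 to 0.48 for WIPI1 and -0.04 to 0.21 for ATP6V0D1. With relative log expression scaling or DESeq2, WIPI1 was called higher with EGF (adjusted p = 0.0395 and 0.0369), as it was without EGF replicate 3 (0.0286) or OSM replicate 2 (0.00787).

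**Figure D3:**
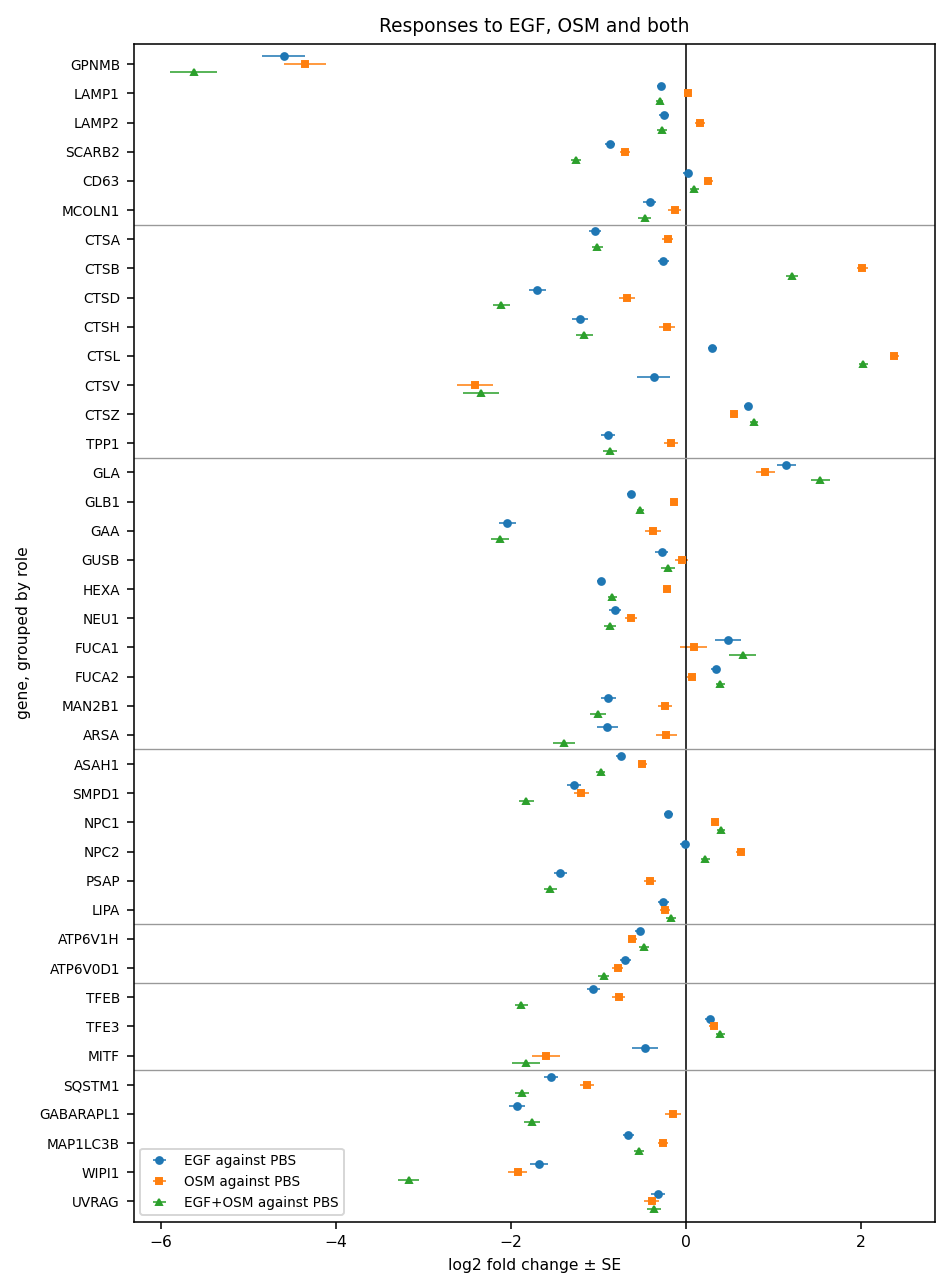
Log2 fold change ± SE against PBS for each member (rows, grouped by role) with EGF (circles), OSM (squares) and EGF+OSM (triangles), from 3 libraries a group. EGF points lie left of OSM points for most hydrolases, while CTSB and CTSL lie far to the right with OSM, and GPNMB and WIPI1 lie furthest left with both ligands.

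With EGF and OSM together, 30 members were lower and 9 higher than with PBS, beside 39.6% and 37.6% of all genes. The median log2 fold change was -0.85. EGF+OSM was the group with the lowest mean for 15 members, more than any other group. How often it was the lowest group over all genes was not counted, so this is a description only. CD63 was the only member not called (0.10 ± 0.05), and it was called higher without PBS replicate 2 (adjusted p = 0.035) or EGF+OSM replicate 3 (0.0491). The members that fell most beside GPNMB were WIPI1 (-3.17 ± 0.12), CTSV (-2.34 ± 0.20), GAA (-2.12 ± 0.10) and CTSD (-2.11 ± 0.10).

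Departures from additivity set the log2 response to a pair against the 2 single-ligand responses added up, and are 0 when these add. For EGF+OSM, 17 members departed upward and 6 downward, beside 15.7% and 23% of all genes, with a median of 0.25 (0.15 without OSM replicate 3). For members that fell with each ligand, an upward departure means that the pair fell less than the sum. This held for SQSTM1 (0.79 ± 0.12, adjusted p = 4.5e-06), ATP6V1H (0.66 ± 0.08), SMPD1 (0.65 ± 0.12) and NEU1 (0.57 ± 0.10). The downward departures were those of CTSL (-0.65 ± 0.07), CTSB, GLA (-0.52 ± 0.15), CTSZ, NPC2 and TFE3, each of which rose with OSM. The call for TFE3 was lost with upper-quartile scaling (adjusted p = 0.0758), with no filter, and without PBS replicate 2, EGF replicate 3 or EGF+OSM replicate 2 or 3. The value for GPNMB was 3.32, at levels where the pair lies near 2 CPM, and is given with no test, though the counts and median above include GPNMB. WIPI1 departed upward by 0.43 ± 0.17 (adjusted p = 0.0486), a call lost on leaving out PBS replicate 2 or 3, EGF replicate 1 or 3, OSM replicate 1 or 3, or EGF+OSM replicate 1 or 2 (adjusted p up to 0.165).

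TGFB alone left 15 members called, 12 higher and 3 lower, beside 19.9% and 15.8% of all genes. More members, and a larger share of all genes, passed the test when TGFB was added to EGF or OSM. Added to EGF, it left 24 members higher and 3 lower, beside 27% and 27.7% of all genes; 5 were lower without EGF replicate 1, with DESeq2 or with either other scaling. Added to OSM, it left 18 higher and 9 lower, beside 26.1% and 25.6%; the lower count was 4 without OSM replicate 2 and 5 without OSM+TGFB replicate 1. Added to both, it left 24 higher and 8 lower, beside 31.6% and 29.5%. The median changes were 0.21, 0.13 and 0.31 on the log2 scale, and the second was 0.23 without OSM replicate 2 and 0.07 without OSM replicate 3. These 3 comparisons share no library, and 17 members were called higher in all 3, as were 19.2% of all genes tested.

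The 17 were WIPI1, GABARAPL1 and MAP1LC3B of the autophagy genes, TFEB and TFE3 of the factors, LAMP2, SCARB2, CD63 and MCOLN1 of the membrane proteins, CTSB and CTSZ, ARSA and GLB1, SMPD1, NPC1 and NPC2, and ATP6V0D1. WIPI1 rose by 1.46 ± 0.11 when TGFB was added to EGF, by 1.03 ± 0.11 when added to OSM and by 2.28 ± 0.13 when added to both. ARSA rose by 1.65 ± 0.13 in the last of these, GABARAPL1 by 1.35 ± 0.09, TFEB by 1.32 ± 0.08, SMPD1 by 1.14 ± 0.09 and MAP1LC3B by 1.01 ± 0.06. The members lower in all 3 were CTSD, CTSH and GLA. With EGF, the call of GLB1 was lost without EGF replicate 1 (adjusted p = 0.079) or EGF+TGFB replicate 2 (0.0511) and that of CTSH without EGF replicate 2 (0.0647); with OSM, that of CTSH was lost without OSM replicate 2 (0.0539). CTSV and MITF were not called in any of the 3, although MITF was called lower with OSM without OSM replicate 3 (adjusted p = 0.0109) or OSM+TGFB replicate 2 (0.0449).

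**Figure D4:**
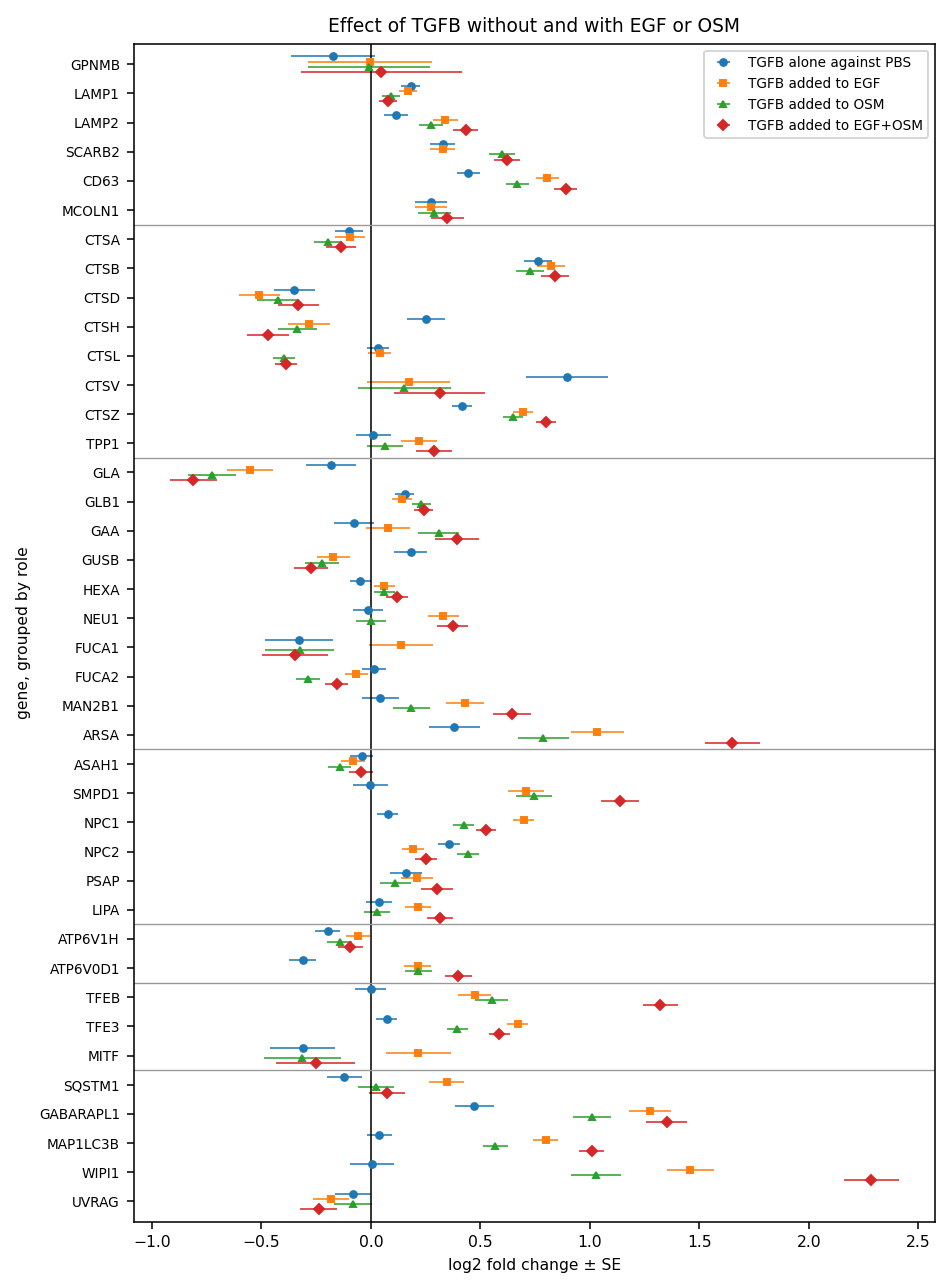
Log2 fold change ± SE for TGFB alone against PBS (circles) and for TGFB added to EGF (squares), to OSM (triangles) and to EGF+OSM (diamonds), for each member by role. WIPI1, TFEB, SMPD1 and MAP1LC3B sit near 0 with TGFB alone and to the right when EGF or OSM is present, reaching 2.28 for WIPI1.

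The difference between the effect of TGFB with and without another ligand was tested by the departures. For EGF+TGFB 15 members departed upward and 3 downward, beside 13.3% and 16.5% of all genes. For OSM+TGFB 12 departed upward and 5 downward, beside 9.61% and 13.7%. WIPI1 departed by 1.45 ± 0.15 with EGF+TGFB (adjusted p = 1.04e-07) and 1.02 ± 0.15 with OSM+TGFB (adjusted p = 2.5e-05). SMPD1 departed by 0.71 ± 0.11 and 0.75 ± 0.11, and MAP1LC3B by 0.76 ± 0.08 and 0.53 ± 0.08. GABARAPL1 departed by 0.80 ± 0.13 and 0.54 ± 0.12, and TFEB by 0.48 ± 0.10 and 0.55 ± 0.10. The 2 departures share the PBS and TGFB libraries. CTSH departed downward in both (-0.53 ± 0.13 and -0.59 ± 0.13): it was higher with TGFB alone by 0.25, a call lost on leaving out PBS replicate 1 or 3 or TGFB replicate 1 or 2 (adjusted p up to 0.0973), and it fell when TGFB was added to EGF or OSM.

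Against PBS, EGF+TGFB left 22 members lower and 11 higher, beside 37.5% and 36.2% of all genes. OSM+TGFB left 20 lower and 13 higher, beside 31.8% and 34.2%, and all 3 ligands left 25 lower and 13 higher, beside 36.7% and 37.7%. The medians were -0.45, -0.18 and -0.49. With all 3 ligands GAA (-1.73 ± 0.10), PSAP (-1.24 ± 0.07) and SQSTM1 (-1.80 ± 0.08) remained low, while MAP1LC3B (0.47 ± 0.06) and NPC1 were above PBS.

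Over the 24 h without ligand fewer members were called than with EGF or OSM against PBS, though more than with TGFB alone. PBS was higher than T0 for 18 members and lower for 8, beside 16.2% and 18.9% of all genes, with a median of 0.15 (0.09 without PBS replicate 2). Without T0 replicate 3 the calls fell to 10 higher and 6 lower. GAA (0.83 ± 0.09, adjusted p = 3e-07), PSAP (0.50 ± 0.07), ATP6V0D1 (0.42 ± 0.06) and WIPI1 (0.40 ± 0.10) were higher with PBS, and GLA (-0.59 ± 0.11) and CTSZ (-0.49 ± 0.05) lower. Against T0 itself, EGF left 28 members lower and 5 higher, beside 36.6% and 32.8% of all genes; 3 were higher without T0 replicate 1. GABARAPL1 (-1.81 ± 0.09), CTSD (-1.38 ± 0.09), SQSTM1 (-1.28 ± 0.08) and GAA (-1.21 ± 0.10) were below their level at T0 as well as below PBS.

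The same readouts were taken for 110 other genes of the pathway, listed by function and all tested. With EGF, 68 (61.8%) were lower and 25 (22.7%) higher, beside 38.6% and 34.9% of all genes, with a median of -0.30. With OSM 53 (48.2%) were lower and 21 (19.1%) higher, beside 29.8% and 33.5%. With EGF+OSM 69 (62.7%) were lower and 23 (20.9%) higher, beside 39.6% and 37.6%. TGFB alone left 21 (19.1%) higher and 18 (16.4%) lower, shares near the 19.9% and 15.8% of all genes. TGFB added to EGF+OSM left 58 (52.7%) higher and 22 (20.0%) lower, beside 31.6% and 29.5%. The members' own share called lower with EGF, 77.5%, was thus larger than the 61.8% of this wider list. Both lists were drawn up with earlier results of these data known, so the wider list is not an independent check.

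By class, 20 of 36 other enzymes and membrane proteins were lower with EGF and 8 higher, where all genes gave 38.6% and 34.9%. Of 17 other V-ATPase subunits 13 were lower and 4 higher, and of 30 other autophagy genes 19 and 7. Of 18 genes of nutrient sensing at the lysosome 11 were lower and 4 higher, and of 9 of sorting to the lysosome 5 and 2. ATP6V1B1, a V-ATPase subunit known from acid-secreting epithelia, had a mean of 99.2 ± 11.4 CPM with PBS, 11.5 ± 2.06 when EGF was given and 5.91 ± 1.78 when OSM was (SD, n = 3). ULK1, the kinase that starts autophagy, had 112 ± 3.81 with PBS, 29.1 ± 2.63 with EGF and 181 ± 9.82 with TGFB. CTSF, a cysteine protease, fell by 2.25 with EGF on the log2 scale. SORT1, a sorting receptor, fell by 1.58, and RRAGD, a GTPase that recruits mTORC1, by 2.11 at a mean of 3.15 CPM with PBS.

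Lysosomal genes are abundant in macrophages and GPNMB and MITF in melanocytes, so markers of those cells were read too, with those of fibroblasts and endothelium. PTPRC did not exceed 0.225 CPM in any library and AIF1 was at 0 in all 27. The 5 macrophage markers summed to 73.9 to 81.9 CPM with PBS, 22.6 to 27.2 with EGF, 73.1 to 104 with OSM and 26.5 to 35.5 with EGF+OSM, nearly all of it CD14 and CSF1R, and this sum moved with the groups. Of the 4 melanocyte markers, TYR and DCT did not exceed 0.0750 and 0.0700 CPM. PMEL was at 0.2528 to 1.171 CPM over the libraries and MLANA at 0.5958 to 2.004 CPM. The 4 summed to 2.24 to 2.76 CPM with PBS, 1.22 to 1.41 with EGF and 0.9354 to 1.024 with EGF+OSM. With TGFB they summed to 2.102 to 2.497 CPM, overlapping PBS. The melanocyte sum, nearly all of it PMEL and MLANA, thus moved with the groups too. PTPRC, AIF1, TYR and DCT were at or near 0 in every group. The part of CD14, CSF1R, PMEL and MLANA in the results was not tested.

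The 4 fibroblast markers summed to 36.8 to 43.3 CPM with PBS, 20.9 to 22.6 with EGF, 23.3 to 28.6 with OSM, 4.12 to 5.87 with EGF+OSM and 105.9 to 118.5 with TGFB. Nearly all of that was COL1A1, a collagen chain, since COL1A2, PDGFRB and PDGFRA did not exceed 0.453, 1.04 and 0.256 CPM in any library. The 3 endothelial markers summed to 29.6 to 32.3 CPM with PBS, 15.4 to 18.3 with TGFB, 1.39 to 1.68 with EGF and 2.86 to 3.59 with OSM. KDR, a receptor for vascular endothelial growth factor, made up most of the sum with PBS, while PECAM1 and CDH5 did not exceed 2.06 and 0.144 CPM. Both sums moved with the groups, and the part of COL1A1 and KDR in the results was not tested.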

How the data were processed

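RNA from 27 libraries of MCF10A cells was analysed, 3 for each of 9 groups assigned by the labels. The deposited values were treated as estimated counts per gene. They are whole numbers that the authors may have rounded, and the submitters' processing notes list Trim Galore 0.4.3, cutadapt 1.10, FastQC 0.11.5, kallisto 0.46.2 and R 3.5.0, and the builds GRCh38.p5 and hg38, without their roles. Per the labels' protocols, the kit was stranded and took polyadenylated RNA.

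Rows sharing a symbol were summed over the whole table, which left 36536 of 40487 rows; the 7165 rows lacking a symbol kept their Ensembl identifiers and held 0.324% of counts. After filterByExpr by group, 15575 genes remained. CPM use library sizes with TMM factors (trimmed mean of M-values, 0.867 to 1.12). edgeR 4.0.16 in R 4.3.3 fitted a mean for each group over all 27 libraries (glmQLFit, robust, 18 residual degrees of freedom). Contrasts were tested with glmQLFTest, adjusted over the 15575 genes by the Benjamini-Hochberg method, and called at an adjusted p under 0.05. Errors of fold changes are standard errors, and intervals are 95%. The fit was tested on simulated data. There were 16 comparisons: 7 treatments against PBS, PBS and EGF against T0, EGF against OSM, TGFB added in 3 settings, and 3 departures from additivity.

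At 30.1 to 52.9 M (mega) counts a library, the spread between replicates (biological coefficient of variation 7.83%) set the precision of most values. Replicates differed beyond sampling noise (chi-square per degree of freedom 6.34 to 31.2 over pairs), so each counted as 1 replicate. No molecular identifiers or sequencing batches are given in the labels.

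The members and lists were chosen with earlier results of these data known. Values in every library are given for GPNMB and for up to 3 members of each role with the widest range of group means; of the other pathway genes, the 2 of a class with the largest EGF response among those called could be named. Alternatives were other scalings, no filter, rows as deposited, DESeq2 1.42.0, a 2-fold limit, a replicate block, and leaving out each library. Protein sequences were not used here.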

Additional observations from a re-analysis of the deposited data

Results flagged for a closer look

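GPNMB with EGF+OSM lay 3.32 above the sum on the log2 scale, at 3.81, 4.21 and 3.05 CPM with EGF, 4.41, 5.7 and 2.92 with OSM and 2.11, 1.96 and 1.39 with both. That value is a description with no test, since GPNMB was chosen for its levels. For WIPI1 the test of the difference itself found pairs of ligands far from the sum of their single responses. WIPI1 lay 1.45 above the sum with EGF+TGFB and 1.02 above it with OSM+TGFB. WIPI1 was not called with TGFB alone, where its libraries ran from 21.1 to 21.9 CPM beside 20.3 to 22.5 CPM with PBS. In the presence of EGF it went from 5.85 to 7.30 CPM without TGFB to 15.6 to 20.6 CPM with it.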

How the results depend on the processing

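A total of 4480 values for single members were recomputed with all libraries kept. Of these, 4000 kept their side of the threshold, 413 lost a call (362 of them under the 2-fold limit), 67 gained one and 0 changed direction. On leaving out 1 library, 4327 of 4560 kept their side, 186 lost a call, 47 gained one and 0 changed direction. With the 2-fold limit the members called were 12 with EGF, 8 with OSM, 0 with TGFB, 19 with EGF+OSM, 8 with EGF+TGFB, 9 with OSM+TGFB and 13 with all 3 ligands, each against PBS. They were 1 for PBS and 7 for EGF against T0, 8 for EGF against OSM, 3, 2 and 6 for TGFB added to EGF, OSM and both, and 1 for each departure. The share of all genes called past 2-fold was taken only for EGF (27.5%) and TGFB (5.8%) against PBS. The other 2-fold counts have no such share beside them, so they show only how the calls depend on the limit. GPNMB was among the members counted here. It was the only member called past 2-fold for PBS against T0 and for the EGF+OSM departure, so no other member stands behind those counts. On leaving out 1 library the count for PBS against T0 ran from 16 to 27 (26 with all), and was 16 without T0 replicate 3. No other total moved by more than 1.5 times under a setting other than the 2-fold limit. Counts of members in 1 direction that moved further were those higher in EGF against T0 (5, and 3 without T0 replicate 1) and those lower with TGFB added to EGF (3, and 5 without EGF replicate 1, with DESeq2 and with either other scaling) or to OSM (9, 4 without OSM replicate 2 and 5 without OSM+TGFB replicate 1). The downward departures with EGF+TGFB were 3, and 5 with the block. Nothing in the labels says that a replicate number marks a shared culture or day, and the numbers were not taken as pairs. Correlations of deviations between libraries of the same number ran from -0.0265 to 0.178, with 23 of 108 pairs over 0.1. Their median was 0.0574, beside -0.0349 for different numbers, and 26 of 27 libraries correlated best with their own number. Libraries of the same number thus shared a small part of their deviations, for which the main fit has no term. With a replicate block 33 member calls were gained and 0 lost, and the count for EGF against PBS was 38 and for the EGF+OSM departure 30. The CTSV departure with OSM+TGFB was called with the block (adjusted p = 0.00473). Scaling moved the median of all genes by at most -0.094 on the log2 scale. Members had at least 40 counts in every library. At the lowest levels, such as that of MITF with all 3 ligands, counting error can be about as large as the spread between replicates, and the genes named that are no members, such as RRAGD and the markers near 0, had fewer counts.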
